A study of Homo sapiens with 8 samples.

Results

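The numbered zinc finger (ZNF) genes of chromosome 19 were followed in HCT-116 cells, a human colorectal cancer line. The set held every non-control probe of the array whose gene name is ZNF followed by a digit and whose position in the deposited scanner files (hg19) lies on chromosome 19. These were 246 genes among the 36337 gene names of the array, measured by 368 of its 50599 non-control probes. The set was chosen by its higher signal in CDK2-/- cells, so values of CDK2-/- against any other group are given as a description, without a test. The 4 groups compared had 2 arrays each, labelled as biological replicates. WT was the untreated parental line. WT + NU6102 was the same line after 24 h in 20 µM of NU6102, an inhibitor of the kinases CDK1 and CDK2. CDK2-/- was an untreated HCT-116 line with CDK2 knocked out. R50 was a NU6102-resistant line derived from HCT-116 and maintained in 50 µM NU6102. CDK2-/- is represented by 1 line, and whether it came from a single clone is not given in the sources used here. WT and WT + NU6102 were hybridised on 1 slide and CDK2-/- and R50 on the other. For R50 or CDK2-/- against WT, slide and group therefore cannot be told apart, whereas WT + NU6102 against WT and CDK2-/- against R50 lie within a slide.

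Zinc finger proteins of this family bind DNA through arrays of C2H2 fingers joined by a short conserved linker. Many carry a KRAB domain, which recruits TRIM28 and, through it, the histone methyltransferase SETDB1, and are known for silencing retrotransposons. The genes arose by repeated duplication and lie in clusters along chromosome 19, and the clusters themselves are known to carry the repressive mark that SETDB1 writes.

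A value below is the log2 processed signal less the 75th percentile of its array, so that 0 marks a fairly bright probe and a difference of 1 is 2-fold. The scanner software marked 32376 to 36206 spots of an array as well above background, and the lowest such signal lay between -5.28 and -4.66. The CDK2 probe read -0.76 and -0.76 in WT, -0.44 and -0.42 in WT + NU6102, -1.56 and -1.51 in CDK2-/-, and -1.10 and -1.09 in R50. It was lowest in CDK2-/- but above background there, and whether it lies within the altered part of the gene is not given in the sources used here. Of 7 epithelial markers, 6 exceeded background clearly on every array and VIL1 on none. Of 7 markers of other cell types, ACTA2, CDH5, COL1A1 and PTPRC did so on every array and COL3A1 on none, with values from -7.39 to -0.64. COL1A1 read -1.66 and -1.61 in CDK2-/- and -2.91 and -2.80 in WT. COL1A1 and ACTA2 were lower with NU6102, by -0.75 and -0.51 (limma adjusted p = 0.000911 and 0.0166), and both were higher by 0.66 in R50 (limma adjusted p = 0.00436 and 0.0163). CDH5, PTPRC and CD3E passed neither test. The epithelial markers CDH1 and KRT19 gave -0.37 and -0.30 with NU6102 and 0.60 and 0.68 in R50, and passed both tests. KRT8 and KRT18 were higher in both comparisons, EPCAM with NU6102 only, and CDX1 passed neither test. The part of these markers in the results was not tested.

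Testing was limited to the 28677 probes that stood well above background on both replicates of 1 group or more. Among the zinc finger probes 234, of 176 genes, passed and 134 did not, leaving 70 genes with no tested probe. All 8 arrays were well above background for 182 of the 234. A further 20 probes, of 18 genes, were well above background on both CDK2-/- arrays and on none of the other 6. No probe had that pattern for WT, WT + NU6102 or R50. Such probes passed the filter through the group in which they were high.

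In CDK2-/- cells, 48 of the 234 tested probes, of 38 genes, were at least 2-fold higher than in WT and 1 was at least 2-fold lower. Over all tested probes, 3.17% were at least 2-fold higher and 2.74% at least 2-fold lower. Since this contrast chose the genes, nothing is read from the comparison of these shares. All 8 arrays measured 23 of the 48 well above background, whereas for 20 of them neither WT array did. Against R50, on the same slide, 80 probes were at least 2-fold higher and 0 lower, beside 3.02% and 3.32% of all tested probes. Of the 48 probes, 43 were also at least 2-fold higher than in R50, and 33 exceeded all the other groups by that margin. The median difference from WT was 0.30 over the 234 probes and 0.02 over all tested probes. ZNF probes on other chromosomes gave 7 of 348 at least 2-fold higher in CDK2-/- than in WT, and the remaining probes of chromosome 19 gave 45 of 1467. With a normexp background correction, which adds an offset and so shrinks differences of dim probes, the 48 became 28 and the 80 became 42.

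**Figure D1:**
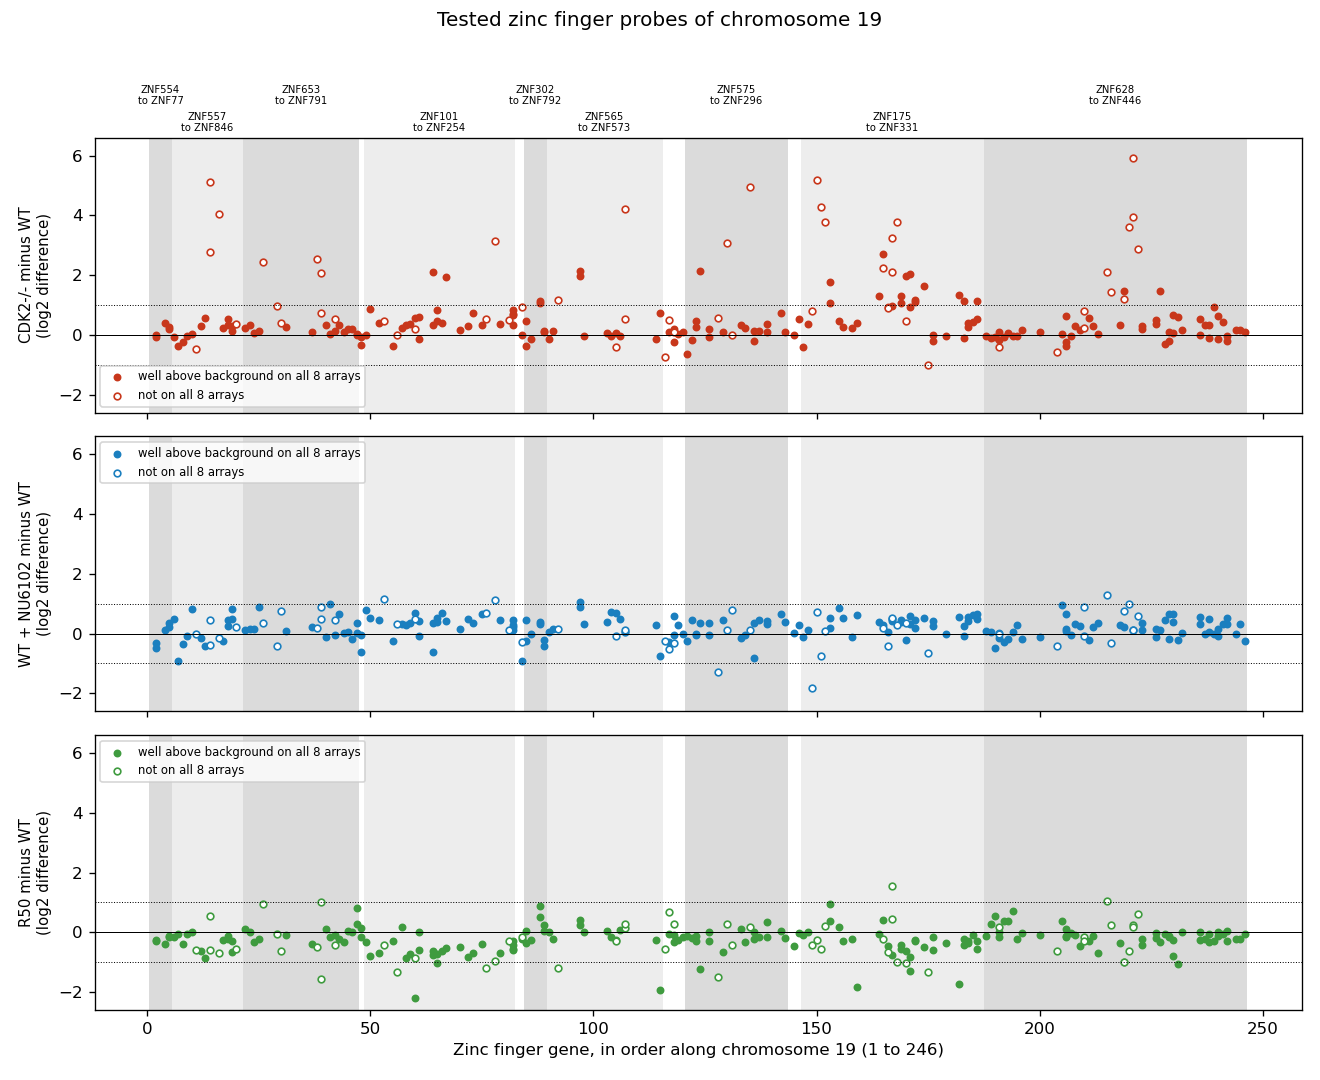
Log2 difference of each tested zinc finger probe (vertical axis) by the order of its gene along chromosome 19 (horizontal axis), for CDK2-/-, WT + NU6102 and R50 against WT. Grey bands mark the 9 clusters of at least 5 genes, filled points are probes well above background on all 8 arrays, open points are the others, and dotted lines mark 2-fold. High CDK2-/- points gather in the ZNF175 to ZNF331 band, and R50 points lie mostly below 0 in the ZNF101 to ZNF254 band.

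Genes were placed in clusters wherever neighbouring members lay at most 1 Mb apart, which gave 9 clusters of at least 5 genes. The cluster from ZNF175 to ZNF331 (chr19:52092551-54083467) held 41 genes and 67 probes, of which 42 were tested. In it 21 probes, of 16 genes among 29 tested, were at least 2-fold higher in CDK2-/- than in WT, and 26 than in R50. In the rest of the set the corresponding count against WT was 27 of 192. Tested probes without a numbered ZNF name between the first and the last member of this cluster gave 0 of 20. The cluster with the next largest count, ZNF628 to ZNF446 at the end of the long arm, had 9 of 60. Larger shares than this were those of ZNF302 to ZNF792 (2 of 7), ZNF565 to ZNF573 (4 of 15) and ZNF557 to ZNF846 (3 of 17). The cluster from ZNF101 to ZNF254 had 3 of 31 against WT but 21 of 31 against R50. The 14 tested probes of the smaller groups of genes gave 0.

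**Figure D2:**
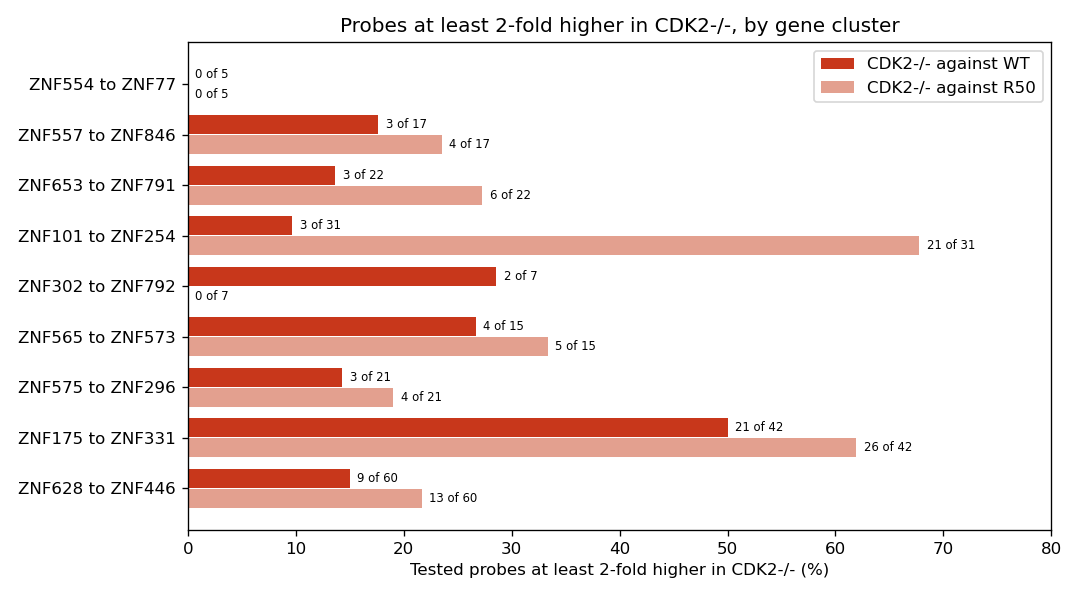
Share of tested probes (horizontal axis, %) at least 2-fold higher in CDK2-/- than in WT (dark bars) or R50 (light bars), for each cluster in order along the chromosome. The ZNF175 to ZNF331 cluster reached 21 of 42 against WT, and the ZNF101 to ZNF254 cluster 21 of 31 against R50.

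Within the ZNF175 to ZNF331 cluster many of the high probes belonged to neighbouring genes. ZNF613 opened the first run, with -0.99 and -1.01 in CDK2-/- against -6.25 and -6.12 in WT, -5.46 and -5.49 in WT + NU6102, and -6.01 and -6.90 in R50. The CDK2-/- arrays stood alone above background, and the signal was at least 15.4-fold higher than in WT, a bound against the lowest signal well above background on each WT array, or the probe's own signal where that was higher (measured means -0.999 and -6.18). The neighbouring ZNF350, a repressor known as a partner of BRCA1, read -1.46 and -1.46 in CDK2-/- against -5.47 and -6.01 in WT, at least 11.2-fold higher (means -1.46 and -5.74). It was above background on none of the 6 other arrays. ZNF615 followed at no less than 2.97-fold, with means of -3.37 and -7.13. ZNF614, the next gene, was measured on all 8 arrays and read 0.16 and -0.02 in CDK2-/-, -1.82 and -1.59 in WT, -1.14 and -1.21 in WT + NU6102, and -0.57 and -0.97 in R50. Every array of the other groups lay above both WT arrays.

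A longer run went from ZNF578 to ZNF816, with exceptions. ZNF83 read -1.94 and -1.97 in CDK2-/- and was above background on no other array, which made it at least 7.96-fold higher than in WT (means -1.95 and -5.73). ZNF808 read -0.84 and -1.05 in CDK2-/- and -3.74 and -3.59 in WT, but its R50 arrays, at -1.90 and -4.62, differed from each other by more than CDK2-/- differed from the nearer of them. ZNF28 read -1.65 and -1.52 in CDK2-/- against -3.79 and -3.30 in WT, and in ZNF468, ZNF320, ZNF600 and ZNF816 at least 1 probe measured on all 8 arrays exceeded WT by between 1.05 and 2.03. ZNF701 lay under the 2-fold line, at 0.94 and 0.89 for its 2 probes, as did the brightest probe of ZNF137P, at 0.96, whereas its 2 dimmer probes differed by 2.10 and 3.24. Beyond the run, ZNF845 exceeded WT by 1.34 and the brighter probe of ZNF813 by 1.13. Around these runs, the brightest probes of ZNF480, ZNF616, ZNF766 and ZNF160 differed from WT by -0.02 to 0.41. ZNF610, ZNF528, ZNF836, ZNF347, ZNF415 and ZNF331, an imprinted gene, had no probe above background on any array. The probes of ZNF525 disagreed: the brighter, near 6.29 in WT, differed by -0.11 in CDK2-/-, and the dimmer, near -1.49, by 1.14. The brighter one shares a run of 38 bases with a probe of RPL39, so its signal may not be that of ZNF525 alone. The dimmer one shares no run of at least 20 bases with a probe of another gene.

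**Figure D3:**
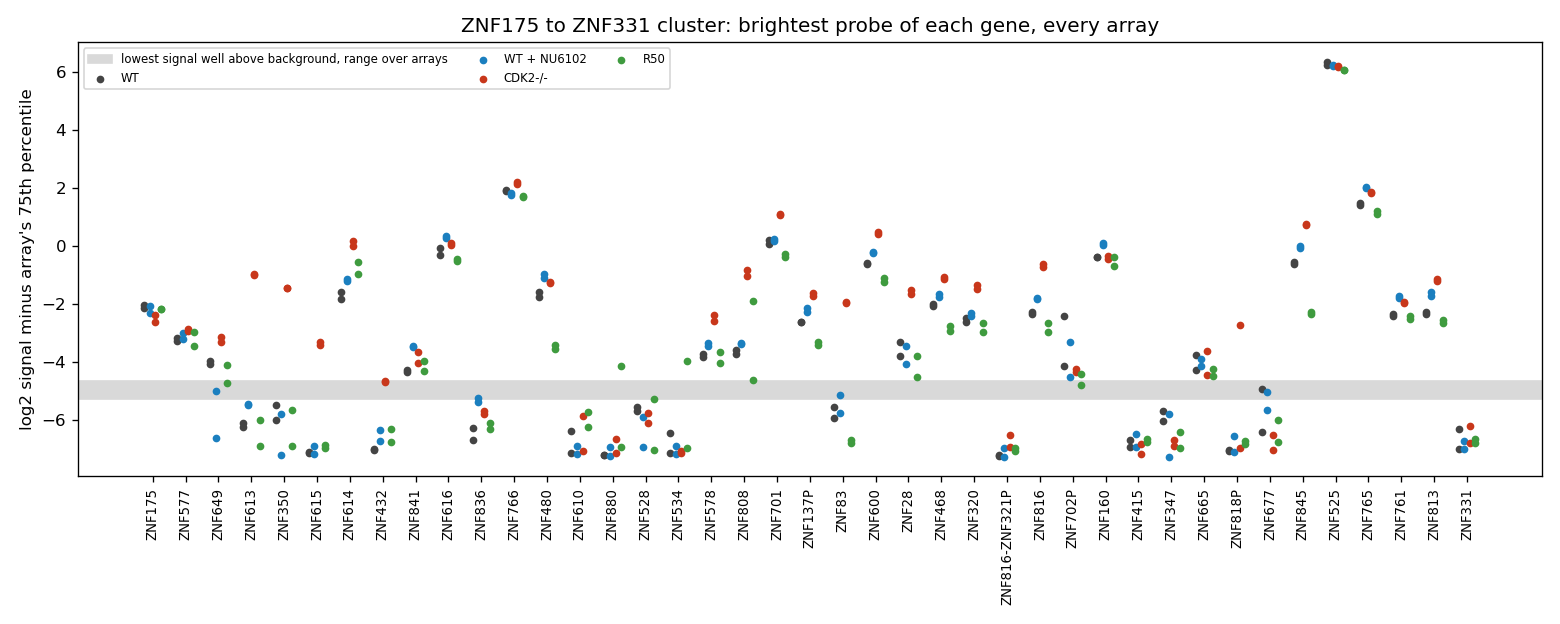
Signal on every array (vertical axis, log2 less the 75th percentile of the array) of the brightest probe of each gene from ZNF175 to ZNF331, in chromosomal order. Colours mark the 4 groups and the grey band the lowest signal well above background over the arrays. In ZNF613, ZNF350, ZNF615 and ZNF83 the CDK2-/- points stand above the band and all others lie in or below it.

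The promoters of genes with high and undetected signal in the ZNF175 to ZNF331 cluster are shown to compare their CpG content. In these 250 bases before the annotated start (RefSeq, GRCh38.p14), CG dinucleotides are in capitals. ZNF613 and ZNF350 were high in CDK2-/-, and ZNF528 and ZNF331 were not detected in any group.
ZNF613 promoter, chr19:51927222-51927471, plus strand: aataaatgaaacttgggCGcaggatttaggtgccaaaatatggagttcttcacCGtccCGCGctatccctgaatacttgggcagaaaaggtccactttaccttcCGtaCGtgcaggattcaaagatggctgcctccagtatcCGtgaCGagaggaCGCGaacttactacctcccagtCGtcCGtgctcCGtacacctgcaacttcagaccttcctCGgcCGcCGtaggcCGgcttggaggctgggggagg
ZNF350 promoter, chr19:51986841-51987090, minus strand: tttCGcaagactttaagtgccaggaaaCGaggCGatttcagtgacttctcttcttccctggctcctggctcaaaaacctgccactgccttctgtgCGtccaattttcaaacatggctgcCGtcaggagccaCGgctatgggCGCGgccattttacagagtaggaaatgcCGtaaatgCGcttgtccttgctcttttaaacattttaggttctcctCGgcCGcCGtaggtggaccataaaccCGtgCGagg
ZNF528 promoter, chr19:52397599-52397848, plus strand: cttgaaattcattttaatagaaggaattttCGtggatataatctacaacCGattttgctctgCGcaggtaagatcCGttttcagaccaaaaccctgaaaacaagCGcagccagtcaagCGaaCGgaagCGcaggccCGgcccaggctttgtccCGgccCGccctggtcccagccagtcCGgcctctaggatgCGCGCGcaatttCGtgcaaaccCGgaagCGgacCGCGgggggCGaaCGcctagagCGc
ZNF331 promoter, chr19:53520764-53521013, plus strand: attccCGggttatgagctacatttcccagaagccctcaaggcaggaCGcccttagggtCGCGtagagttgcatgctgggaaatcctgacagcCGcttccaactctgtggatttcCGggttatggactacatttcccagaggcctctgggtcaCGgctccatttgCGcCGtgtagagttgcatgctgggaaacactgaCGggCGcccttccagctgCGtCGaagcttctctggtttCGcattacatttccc
The 4 windows hold 17, 15, 23 and 14 CG. A RefSeq promoter was matched for 209 of the 246 genes, with a median of 16 CG, and 86.1% held at least 10, compared with 51.9% of all 27305 promoters in the table. The median was 16 for the 32 genes at least 2-fold higher in CDK2-/- and also 16 for the 118 other tested genes. It was 15 for the 59 genes with no tested probe. Within the ZNF175 to ZNF331 cluster the median was 17 for the 13 genes at least 2-fold higher and 19 for the 19 others, tested or not. A CG count describes the letters of the window and not their methylation, which was not measured.

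Because the family arose by duplication, probes were compared with each other. Of the 368 probes, 29 shared a run of at least 20 bases with a probe of another gene, and 22 of these were tested. Of the 48 at least 2-fold higher in CDK2-/- 0 did so, and of the other 186 tested probes 22. The ZNF101 to ZNF254 cluster held 19 of the 29, of which 17 were tested. Only probes on the array were compared, so matches to transcripts without a probe were not looked for. The linker between fingers, the part the genes share most closely, was found in an open reading frame in 15 of the 368 probes and in 2 of the 48. Those 2 are printed with the linker codons in capitals (hg19).
ZNF600 probe, chr19:53269571-53269630, minus strand: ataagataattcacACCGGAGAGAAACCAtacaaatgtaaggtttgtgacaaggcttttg
ZNF416 probe, chr19:58083585-58083644, minus strand: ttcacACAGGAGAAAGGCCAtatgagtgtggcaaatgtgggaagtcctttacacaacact
Both exceeded WT in CDK2-/-, the ZNF600 probe by 1.30 and the ZNF416 probe by 1.19. For each gene a second probe without the linker gave a like difference, at 1.05 for ZNF600 and 1.46 for ZNF416. Over the set, 52 genes had more than 1 tested probe. All of them were at least 2-fold higher in CDK2-/- for 9 genes, and some but not all for 8.

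Outside the ZNF175 to ZNF331 cluster, genes with signal in CDK2-/- alone were spread along the chromosome. ZNF134 read -1.13 and -1.35 in CDK2-/- and between -7.19 and -6.88 on the other 6 arrays. It was at least 13.1-fold higher than in WT (means -1.24 and -7.16). ZNF266, on the short arm, read -1.30 and -1.29 in CDK2-/- against -6.21 and -6.60 in WT, at least 12.6-fold higher (means -1.30 and -6.41). ZNF234 read -2.06 and -2.09 against -7.02 and -7.03, at least 7.31-fold higher (means -2.08 and -7.03). ZNF91, a repressor of SVA retrotransposons, read -2.68 and -2.88 against -5.79 and -6.02, at least 4.49-fold higher (means -2.78 and -5.90). In each of these 4 genes the other 6 arrays were not well above background. Among genes measured on all 8 arrays, ZNF283 exceeded WT by 2.13, ZNF567 by 1.98, ZNF100 by 1.93, ZNF416 by 1.46 and ZNF586 by 1.46. The largest falls among such genes were small, at -0.63 for ZNF575, -0.41 for ZNF175 and -0.38 for ZNF302.

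Among tested probes of other genes inside the cluster spans, 10 of 224 were at least 2-fold higher in CDK2-/- than in WT, and 8 of these lay among the 18 between ZNF565 and ZNF573. Of the 8, 6 belonged to LOC100506930 and 1 to LOC728485, and the last was HKR1, itself a KRAB zinc finger gene without a ZNF name (means -2.71 and -6.56).

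Treatment of WT cells with NU6102 for 24 h moved few of these genes by 2-fold. In a limma fit over all tested probes, with Benjamini-Hochberg adjusted p under 0.05 and at least 2-fold as the call, 4 zinc finger probes were higher and 1 lower, beside 1.28% and 5.21% of all tested probes. Without a minimum fold, 79 of 234 were higher and 15 lower, beside 23.8% and 21.0%. The median difference was 0.24 for these genes and 0.03 over all probes. ZNF93, a repressor of LINE-1 elements, read -3.28 and -3.13 with the drug and -4.21 and -4.50 without, a rise of 1.15 ± 0.15 (limma SE, n = 2 against 2, adjusted p = 0.0023). ZNF442 read -3.18 and -3.19 against -4.14 and -4.24, a rise of 1.01 ± 0.09 (adjusted p = 0.000691, limma). Both genes were named because they were called, and the groups did not overlap in either. A probe of ZNF567 was the third call (1.07), while the brightest probe of that gene rose by 0.89, under the 2-fold line. ZNF91 was the fourth call (1.12), although neither group of ZNF91 was well above background. All 4 calls were lost with the normexp correction. The lower call was ZNF649, at -5.00 and -6.63 with the drug against -3.96 and -4.06 (-1.81 ± 0.53, adjusted p = 0.037, limma). The drug-treated arrays were below background and far apart, and the call was lost with the replicate number as a block and when any of 7 of the 8 arrays was left out.

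In R50 cells more of these genes were lower than higher. No probe was called higher than in WT, with 0 also at an unadjusted p under 0.05 and 2-fold, and 15 were called lower, beside 1.64% and 0.955% of all tested probes. Without a minimum fold, 8 were higher and 65 lower, beside 9.80% and 12.9%. The median difference was -0.22, against -0.04 over all probes. ZNF430 fell most, from -1.43 and -1.52 in WT to -3.48 and -3.84 in R50 (-2.18 ± 0.13, limma SE, adjusted p = 0.000569). ZNF573 fell from -2.12 and -2.03 to -4.06 and -3.95 (-1.93 ± 0.08, limma adjusted p = 0.000253). ZNF480 and ZNF845, both in the ZNF175 to ZNF331 cluster, fell by 1.82 ± 0.08 and 1.71 ± 0.06 (limma adjusted p = 0.000355 and 0.000145). ZNF283 fell by 1.23 ± 0.11 (limma adjusted p = 0.0021). In each of the 5 genes, named because they were called lower, every R50 array lay below every WT array. All 8 arrays were well above background. ZNF486 was not well above background in R50, where its own signal set the bound, and was at least 2.48-fold lower than in WT (means -4.57 and -3.25, limma adjusted p = 0.003). The call of ZNF83 rests on arrays not well above background in either group. The normexp correction gave 4 lower calls, a fit of only the R50 and WT arrays 9, and an adjusted two-sample test 0.

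**Figure D4:**
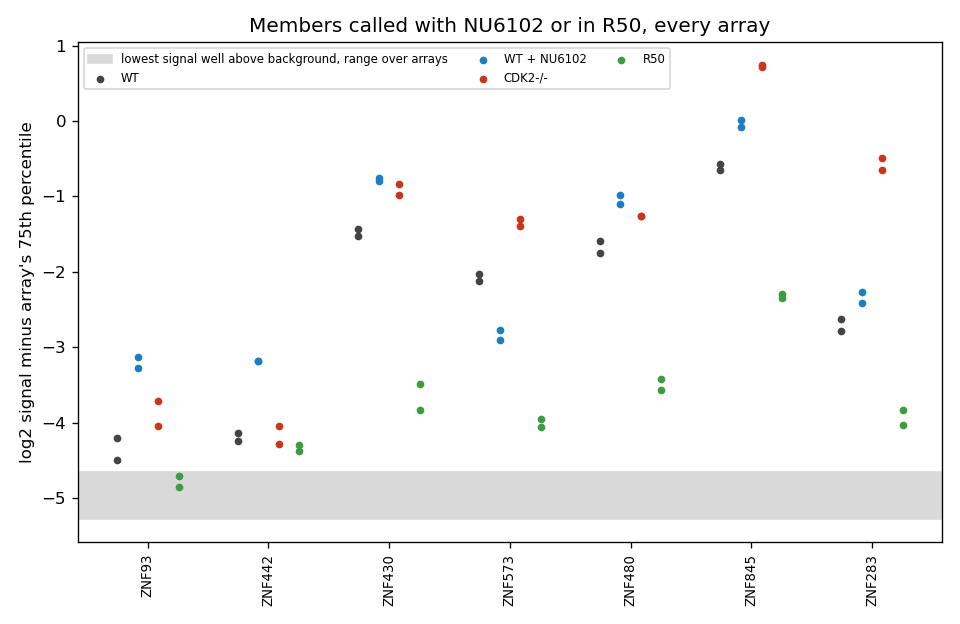
Signal on every array (vertical axis, log2 less the 75th percentile of the array) of the genes called with NU6102 (ZNF93, ZNF442) or in R50 (ZNF430, ZNF573, ZNF480, ZNF845, ZNF283). Points are single arrays and the grey band is the lowest signal well above background over the arrays. The R50 points of the last 5 genes lie below all others.

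Of the 9 clusters, the one from ZNF101 to ZNF254 (chr19:19790730-24312487) had the largest share of probes lower in R50. It is a group of 34 genes near the centromere of which 24 were tested with 31 probes. Without a minimum fold, 21 of the 31 probes were lower in R50 than in WT and 0 higher, beside 12.9% and 9.80% of all tested probes, with a median of -0.61. With NU6102 for 24 h, 18 of the same 31 were higher and 0 lower, beside 23.8% and 21.0%, with a median of 0.41. Both comparisons use the same WT arrays. Of the 31 probes, 17 shared a run of at least 20 bases with a probe of another gene. Among the 14 others 8 were lower in R50, 6 were higher with NU6102 and 0 passed in the opposite directions, with medians of -0.76 and 0.36. ZNF675, an inhibitor of TRAF6 signalling, read 0.45 and 0.38 in WT, 0.91 and 0.84 in WT + NU6102, 0.84 and 0.69 in CDK2-/-, and -0.26 and -0.32 in R50. Its arrays fell into a low R50 pair, a middle WT pair and a high set of the other 4. This probe shares runs of up to 25 bases with probes of 5 other genes. ZNF14, whose probe shares no such run, rose by 0.53 ± 0.07 with the drug and fell by 0.78 ± 0.07 in R50 (limma adjusted p = 0.00219 in both). Compared directly, 20 of the 31 probes were called at least 2-fold higher in WT + NU6102 than in R50 and 0 lower (limma), and 45 against 1 of all 234, beside 3.28% and 7.58% of all tested probes. Without the probes that share a run the first count was 8 of 14. That comparison lies across slides.

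**Figure D5:**
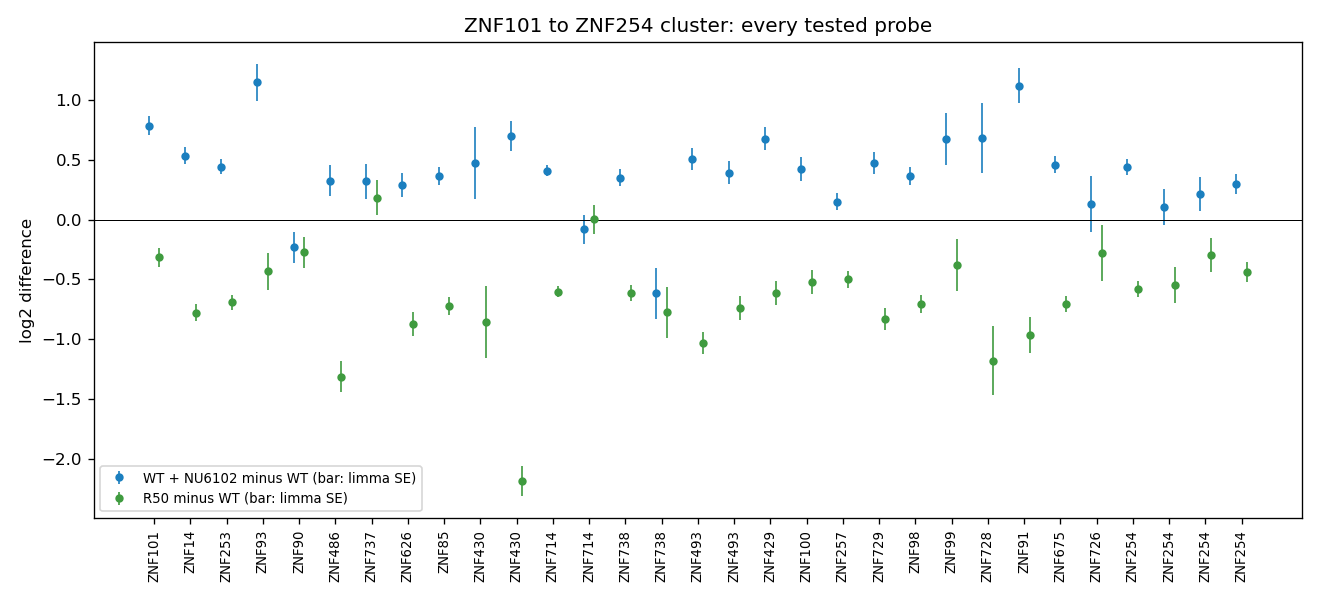
Log2 difference from WT (vertical axis) of every tested probe from ZNF101 to ZNF254, for WT + NU6102 (blue) and R50 (green), with limma standard errors as bars. Most blue points lie above 0 and most green points below it, with medians of 0.41 and -0.61.

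Several members with known roles changed little. ZNF274, which recruits SETDB1 to zinc finger genes, differed from WT by 0.00 with NU6102, -0.23 in R50 and 0.32 in CDK2-/-, and passed neither test (adjusted p = 0.987 and 0.195, limma). ZNF420 gave 0.40 with NU6102 and 0.05 in R50 and also passed neither. ZNF146 fell by 0.22 ± 0.05 in R50 (limma adjusted p = 0.0342). ZNF382 and ZNF568 were not well above background on any array and were not tested, so whether they changed is not known.

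Genes of the silencing pathway that KRAB zinc finger proteins act through were measured on the same arrays. The list of 30 also held other chromatin regulators, among them KDM4A, KDM4B, KDM4C and CTCF. All 30 were tested. With NU6102, 8 were higher and 7 lower, beside 23.8% and 21.0% of all tested probes. In R50 3 were higher and 9 lower, beside 9.80% and 12.9%. None of these changes reached 2-fold. TRIM28 rose by 0.52 with NU6102 (limma adjusted p = 0.000593) and fell by 0.18 in R50 (limma adjusted p = 0.0418). SUV39H2, a histone methyltransferase, rose by 0.76 and fell by 0.34 (limma adjusted p = 0.000311 and 0.0106). ATF7IP and CBX3 also passed both tests in these directions. HDAC1 and KDM4B passed both in the reverse directions. The share of all tested probes that passed both in opposite directions was not counted, so no pattern is read from these genes. HDAC1 gave -0.32 with NU6102 and 0.27 in R50 (limma adjusted p = 0.00227 and 0.0108). KDM4B gave -0.20 and 0.31 (limma adjusted p = 0.0315 and 0.0151). The largest fall with NU6102 was that of FAM208A, at -0.58 (limma adjusted p = 0.000746). SETDB1 gave -0.13 and 0.01 and passed neither test. In CDK2-/- none of the 30 differed from WT by 2-fold, with a median of 0.13, and MORC2 and CBX5 lay farthest out at -0.75 and 0.75.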

How the data were processed

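Each array was scanned and quantified by the authors with Agilent Feature Extraction 11.5.1.1 (submitters' processing notes), and the deposited intensity of a spot is background-subtracted and not normalized between arrays. The authors also deposited log2 values of a GeneSpring table, centred per probe and used here only as an alternative. Control spots and spots with outlier flags, as deposited, were left out. Log2 processed signals were scaled to the 75th percentile of each array, and spots of a probe were averaged. A probe was well above background on an array if at least 0.5 of its spots were. Differences were tested with limma 3.58.1 in R 4.3.3 over all 4 groups (Benjamini-Hochberg), and the fit was tested on simulated data. A gene is represented by its brightest probe. Genes were named by the 2 largest CDK2-/- differences and the largest bound per cluster, the 5 largest called rises and falls per tested comparison, the 3 largest falls, and a list of members with known roles. Other genes were chosen after their values were seen. The members and lists were chosen with earlier results of these data known. The number of arrays, 2 per group, limits the precision. Replicate numbers did not pair the samples (correlations of -0.03 to 0.05).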

Additional observations from a re-analysis of the deposited data

Results flagged for a closer look

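Only brightest probes well above background on both WT arrays were considered here, and either change against WT had to reach 2-fold. In 4 such genes the change with NU6102 and the change in R50, both against WT, passed the limma test in opposite directions. Genes with smaller changes, such as ZNF14 and ZNF675, did so as well. How many of all tested probes did was not counted, so nothing is read from the number of genes. Of all tested probes, 23.8% were higher and 21.0% lower with NU6102, and 9.80% higher and 12.9% lower in R50 (limma, no minimum fold). In the 4 genes the direct comparison of WT + NU6102 with R50 passed the test too. The difference was 2.88 for ZNF430 (adjusted p = 4.85e-05), 2.46 for ZNF480 (2.72e-05), 2.28 for ZNF845 (1.7e-05) and 1.59 for ZNF283 (0.000157). The rise of ZNF283 with NU6102 (0.36, limma adjusted p = 0.0414) was lost without the filter on dim probes, with only the 4 arrays of that comparison, in both two-sample tests, and without any 1 of the WT, WT + NU6102 or CDK2-/- arrays. Those of ZNF480 and ZNF845 were lost in the adjusted two-sample test. The genes were chosen for a difference between WT + NU6102 and R50, and every WT + NU6102 array lay above every R50 array in each. The groups lie on different slides, so that slide and group cannot be told apart here.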

How the results depend on the processing

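Probe counts of CDK2-/- are differences without a test. With normexp and an offset of 50, counts at least 2-fold higher fell to 28 against WT and 42 against R50 (ZNF175 to ZNF331: 11 and 14), lower against WT to 0, and calls to 0 higher and 0 lower with NU6102 and 4 lower in R50. With only probes well above background on all 8 arrays they were 23 and 44 higher (17 in that cluster against R50) and 0 lower against WT, 2 higher and 0 lower with NU6102, and 9 lower in R50. Without a filter, 13 were lower against WT, 5 lower against R50 and 0 lower with NU6102. With 1 probe a gene the cluster gave 13 and 17. Without a minimum fold, calls were 79 and 15 with NU6102 and 8 and 65 in R50. With only the 4 arrays compared, 0 were lower with NU6102 and 9 lower in R50. An equal-variance two-sample test after adjustment gave 1 higher and 0 lower with NU6102, 0 lower in R50, and 0 and 7 for the falls in R50 and rises with NU6102 of ZNF101 to ZNF254; unadjusted it gave 0 lower with NU6102. Without probes sharing 20 bases with another gene's probe these counts of ZNF101 to ZNF254 were 8 and 6. The replicate block gave 4 higher and 0 lower with NU6102, 0 higher and 12 lower in R50. The cause of these changes was not tested.

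Leaving out single arrays gave 3 to 5 higher and 0 to 1 lower with NU6102, and 0 to 3 higher (3 without R50 replicate 2, 2 without R50 replicate 1, 1 without WT replicate 2) and 10 to 13 lower in R50. It gave 46 to 53 higher and 0 to 1 lower in CDK2-/- against WT (0 without WT replicate 2 or CDK2-/- replicate 2), and 74 to 83 higher and 0 to 1 lower against R50 (1 without R50 replicate 2). The ZNF175 to ZNF331 counts were 21 to 22 and 25 to 26, and those of ZNF101 to ZNF254 15 to 20 lower in R50 and 14 to 19 higher with NU6102. The alternatives for single clusters were chosen after seeing the data. A gap of 0.5 or 2 Mb gave 10 or 6 clusters. With 2 arrays a group, signals near background have no reliable order.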
